A study of Cavia porcellus with 6 samples.

Results

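The BCL2 family is the group of genes that sets how readily a cell dies through its mitochondria, and 10 of its best known members were followed here in the sclera, the collagen-rich coat of the eye. They were taken as the rows of a gene count table named Bcl2, Bcl2l1, Mcl1, Bax, Bak1, Bbc3, Pmaip1, Bcl2l11, Bid and Bad, and all 10 were found among its 32193 genes. The libraries came from guinea pigs, each from posterior scleral tissue of a right eye on day 28. In the FDM group (n = 3) myopia was induced by form deprivation, in which an eye is kept from seeing a sharp image, and the NC group (n = 3) served as the control. Strain, age and sex were not stated, and the 3 libraries of a group are labelled only as numbered samples, so the spread between them may be partly technical. The series title names quercetin, but no library analysed here is labelled as treated with it.

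Proteins of the family meet at the outer membrane of the mitochondrion. BAX and BAK1 assemble into pores that release cytochrome c, after which the apoptosome activates caspases. BCL2, BCL2L1 (BCL-xL) and MCL1 hold these effectors and their activators in check, and the BH3-only proteins relay damage signals by activating the effectors or by occupying the protective members. Prolonged stress of the endoplasmic reticulum (ER), the subject named in the series title, is known to act on this family through the transcription factor CHOP, encoded by Ddit3. CHOP lowers Bcl2 and raises Bcl2l11 in other mammalian cells, while DNA damage raises Bax, Bbc3 and Pmaip1. Much of the control of the family lies at the level of protein stability, cleavage, phosphorylation and location, which counts of RNA do not measure.

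Levels are given as CPM, read counts relative to library size, after scaling of library sizes with edgeR's TMM method, and differences as log2 fold changes of FDM against NC. CPM is not corrected for gene length, so levels of different genes were not compared with each other. Library totals ran from 10377397 to 17534982 counts, and FDM 1 and NC 1 stood apart, with counts for 12783 and 14416 genes against 17689 to 20591 in the other 4 libraries. Markers of scleral fibroblasts were present in every library, summing to 15667 to 61521 CPM among the FDM and 5881 to 54789 CPM among the NC libraries. In the same order the summed markers of skeletal muscle came to 7723 to 52507 and 104.7 to 19711 CPM, and those of photoreceptors to 204.0 to 11036 and 442.7 to 24463 CPM, so markers of neighbouring tissues were present in widely varying amounts. In such bulk samples a change in the number of cells of a type and a change in RNA per cell cannot be told apart.

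Of the 10 genes, 9 had enough counts to be tested, and none of them passed the test of FDM against NC. At an adjusted p below 0.05 edgeR's quasi-likelihood test called 0 of the 9, where 0% of all 16348 genes tested were called, and each of the 9 had an adjusted p of 0.999999. At an unadjusted p below 0.05 it again gave 0 of the 9, against 0.954% of all genes. DESeq2 gave 0 of the 9 an unadjusted p below 0.05. It also called 0 at an adjusted p below 0.05, but gave no adjusted p for Bbc3 and Bcl2l11. Of the 16242 genes with an unadjusted p in DESeq2, 1.73% had one below 0.05 and 0.0554% had an adjusted p below 0.05. Of the 9 genes 6 had positive and 3 negative log2 fold changes, against 51.2% positive among all genes, with a median of 0.17 beside 0.02 for all genes. Bbc3 was the only one of the 9 whose groups did not overlap, and it was higher in FDM, as were 2.73% of all genes (5.55% had no overlap in either direction). The median of the 9 was 0.39 without NC 1 and -0.03 without NC 2, and with total-count scaling, which moved the median of all genes to -0.23, it was -0.04.

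**Figure D1:**
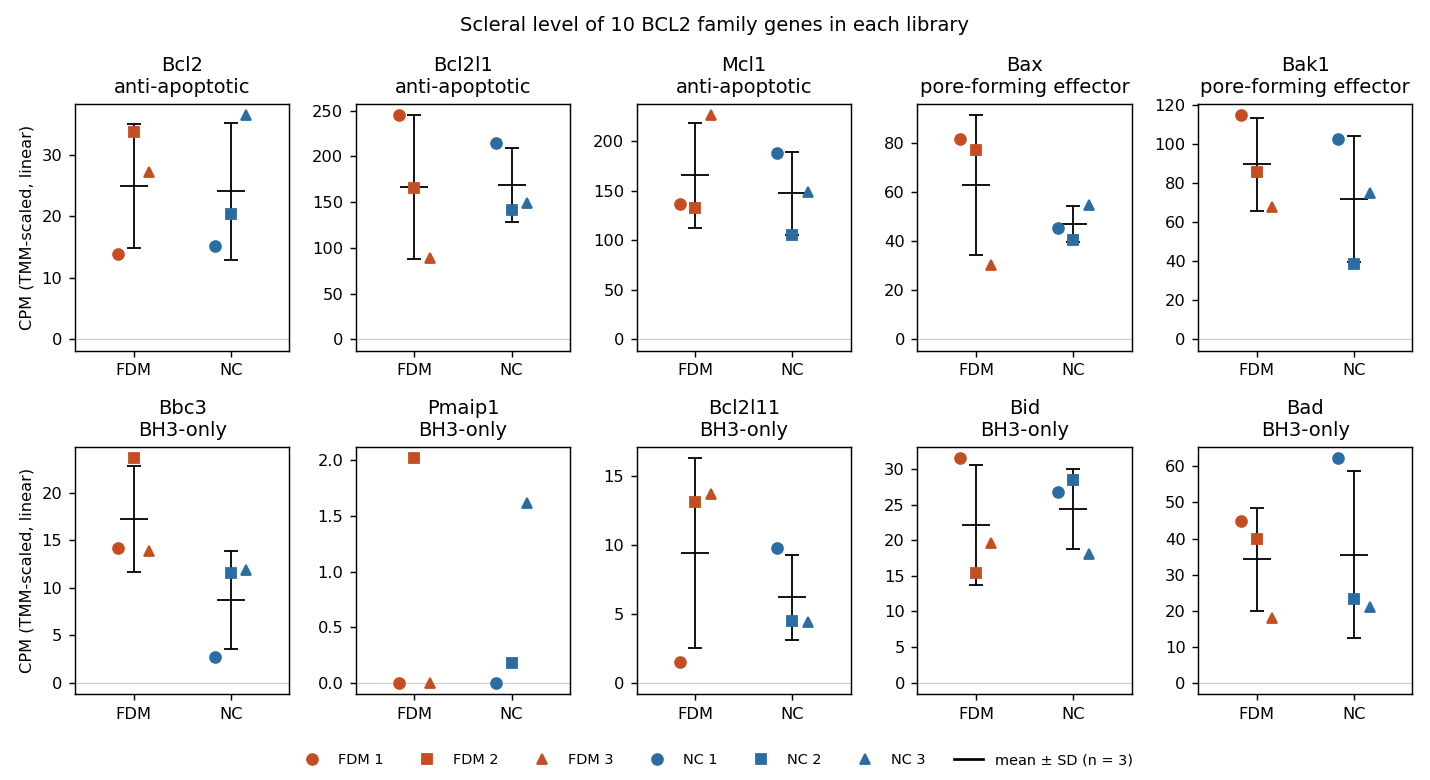
TMM-scaled CPM (linear axis) of the 10 genes in each FDM and NC library, with the mean and SD of 3 libraries as bars; no bar is drawn for Pmaip1, which was at 0 in 3 libraries. The groups overlap in each panel except that of Bbc3, whose FDM libraries lie between 13.9 and 23.7 and NC libraries between 2.74 and 11.8 CPM.

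The anti-apoptotic genes came first. Bcl2, the founding member and the one that CHOP is known to lower, stood at 13.9, 33.7 and 27.2 CPM in FDM 1, 2 and 3 and at 15.3, 20.4 and 36.5 CPM in NC 1, 2 and 3. The lowest value of each group was that of its library 1, and the groups covered nearly the same range. Means were 24.9 ± 10.1 CPM for FDM against 24.0 ± 11.1 CPM for NC (SD, n = 3), and edgeR's log2 fold change was 0.05 ± 0.59 (SE). The 95% interval ran from -1.27 to 1.38, so neither a 2-fold fall nor a 2-fold rise of Bcl2 was outside what these libraries allow. The sign turned without FDM 2 (-0.23), FDM 3 (-0.09, where the median of all genes was -0.18), NC 1 (-0.19) or NC 2 (-0.09).

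Bcl2l1, which encodes the long-lived guardian BCL-xL, held 245.4, 165.4 and 88.9 CPM in FDM 1, 2 and 3 and 215.1, 141.1 and 149.3 CPM in NC 1, 2 and 3. FDM 1 was the highest and FDM 3 the lowest of all 6 libraries, so the FDM values enclosed those of NC. FDM against NC gave a log2 fold change of -0.02 ± 0.47 (SE), with a 95% interval of -1.07 to 1.04. This became 0.23 without FDM 3, 0.19 without NC 1 and -0.41 without FDM 1.

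Mcl1 encodes a protective protein of rapid turnover whose RNA is also short-lived. Its levels were 137.0, 132.9 and 226.6 CPM in FDM 1, 2 and 3 and 188.6, 105.0 and 148.9 CPM in NC 1, 2 and 3. FDM 3 was the highest library and the other FDM libraries lay between those of NC. Mcl1 had the smallest within-group SD of the 9 genes, 0.43 on the log2 CPM scale, and counts of 1390 to 3612 per library. Its log2 fold change of 0.17 ± 0.43 (SE; 95% interval -0.79 to 1.12) was -0.18 without FDM 3, where the median of all genes was also -0.18, and -0.05 without NC 2. FDM 3 also had the highest level of the stress-induced genes Ppp1r15a and Atf3, at 880.0 and 528.1 CPM. Ppp1r15a encodes a regulatory subunit of the eIF2-alpha phosphatase, and Atf3 a transcription factor. FDM 3 was the highest library for 21.7% of all tested genes, and a link of Ppp1r15a or Atf3 to Mcl1 was not tested.

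The pore-forming effectors followed. Bax, a gene induced by DNA damage, stood at 81.5, 77.2 and 30.1 CPM in FDM 1, 2 and 3 and at 45.6, 40.7 and 54.9 CPM in NC 1, 2 and 3. FDM 1 and FDM 2 were above every NC library, whereas FDM 3 was below them all. FDM averaged 62.9 ± 28.5 CPM against 47.1 ± 7.22 CPM for NC (SD, n = 3). The log2 fold change was 0.42 ± 0.47 (SE), the 95% interval -0.65 to 1.48 and the unadjusted p of edgeR's quasi-likelihood test 0.398. Leaving out FDM 3 brought it to 0.69, leaving out FDM 1 to 0.19, leaving out FDM 2 to 0.24 and leaving out both FDM 1 and NC 1 to 0.07.

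Bak1, the effector that resides on the mitochondrion of healthy cells, had 115.0, 85.9 and 68.0 CPM in FDM 1, 2 and 3 and 102.5, 38.4 and 75.1 CPM in NC 1, 2 and 3. NC 2 was well below the other 5 libraries, which overlapped between groups. Its log2 fold change of 0.32 ± 0.46 (SE; 95% interval -0.72 to 1.35) was -0.01 without NC 2, 0.10 without FDM 1 and 0.65 without NC 1.

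Among the BH3-only genes, Bbc3 was the one with the largest difference. It encodes PUMA, a potent inhibitor of the protective members that DNA damage and ER stress induce. Its levels were 14.2, 23.7 and 13.9 CPM in FDM 1, 2 and 3, on 144, 328 and 221 counts, and 2.74, 11.6 and 11.8 CPM in NC 1, 2 and 3, on 28, 191 and 227 counts. All FDM libraries were above all NC libraries, but the lowest FDM library (FDM 3) and the highest NC library (NC 3) were close, and NC 1 was far below the rest. FDM averaged 17.2 ± 5.57 CPM and NC 8.71 ± 5.17 CPM (SD, n = 3), and the fitted difference was 1.98-fold, or 0.98 ± 0.83 (SE) as a log2 fold change. The 95% interval ran from -0.89 to 2.85 and the unadjusted p of edgeR's quasi-likelihood test was 0.265, so the difference did not pass. It was 0.56 without NC 1, 0.59 without both NC 1 and FDM 1, 0.68 without FDM 2, and 1.03 to 1.20 without any of the other libraries. Skeletal muscle markers, 1 of 12 marker lists, took a partly similar order. They summed to 50176, 52507 and 7723 CPM in FDM 1, 2 and 3 and 104.7, 12414 and 19711 CPM in NC 1, 2 and 3. For both measures FDM 2 was the highest library, FDM 1 came next and NC 1 was the lowest. FDM 3 differed, being above every NC library for Bbc3 but below NC 2 and NC 3 for the muscle markers. The part of muscle RNA in the Bbc3 difference was not tested.

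Pmaip1, which encodes NOXA, the BH3-only partner that neutralises MCL1, was barely detected. It had 0, 28 and 0 counts in FDM 1, 2 and 3 and 0, 3 and 31 counts in NC 1, 2 and 3, and it did not pass the filter on low counts. Its signal thus came mainly from FDM 2 and NC 3, at 2.02 and 1.61 CPM, one in each group. A count of 0 allows up to 0.296, 0.188 and 0.293 CPM in FDM 1, FDM 3 and NC 1, taken as 3 counts and covering counting error only. A difference between the groups was not detectable at this depth.

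Bcl2l11 encodes BIM, an activator of BAX and BAK1 that CHOP is known to raise, and it varied most within the groups. It stood at 1.48, 13.1 and 13.7 CPM in FDM 1, 2 and 3, on 15, 182 and 218 counts, and at 9.78, 4.47 and 4.38 CPM in NC 1, 2 and 3, on 100, 74 and 84 counts. FDM 2 and FDM 3 were above all NC libraries, whereas FDM 1 was the lowest of the 6 libraries. Its log2 fold change was 0.60 ± 1.19 (SE), with a 95% interval of -2.07 to 3.28 and a within-group SD of 1.33 on the log2 CPM scale. It was 1.11 without FDM 1, 1.09 without NC 1 and 1.51 without both, and 0.18 to 0.39 without any one of the other libraries. In FDM 1 24.3% of all tested genes had no count, and 31.5% were lower than in every other library, ties left out.

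Bid, whose protein is cut by caspase 8 and so links death receptors to the mitochondrion, had 31.5, 15.4 and 19.6 CPM in FDM 1, 2 and 3 and 26.7, 28.4 and 18.0 CPM in NC 1, 2 and 3. The FDM libraries included both the highest and the lowest value. Bid had a log2 fold change of -0.14 ± 0.55 (SE; 95% interval -1.37 to 1.09), and it was 0.06 without FDM 2, -0.48 without FDM 1 and -0.39 without NC 3.

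Bad, a sensor of growth factor withdrawal that is held inactive by phosphorylation, had 44.9, 40.0 and 18.0 CPM in FDM 1, 2 and 3 and 62.3, 23.2 and 21.0 CPM in NC 1, 2 and 3. NC 1 was the highest and FDM 3 the lowest library. Bad had a log2 fold change of -0.05 ± 0.59 (SE; 95% interval -1.38 to 1.28), and it was 0.63 without NC 1, 0.21 without FDM 3 and -0.36 without NC 3.

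**Figure D2:**
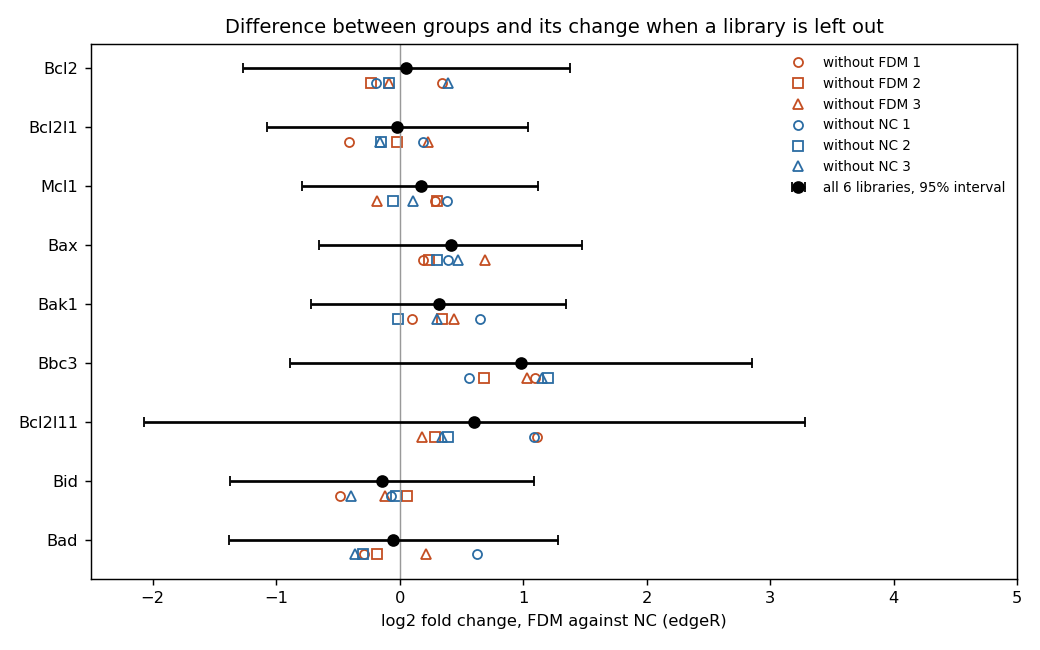
Log2 fold change of FDM against NC from edgeR for the 9 tested genes (black points, with 95% intervals) and its value with each library left out in turn (open symbols, red where an FDM and blue where an NC library is left out). All 9 intervals cross 0, and Bax, Bbc3 and Bcl2l11 stay positive whichever single library is left out.

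The 9 genes did not move as a block across the libraries. FDM 3 had the lowest Bcl2l1, Bax and Bad and the highest Mcl1 and Bcl2l11, while FDM 1 had the highest Bcl2l1, Bax, Bak1 and Bid and the lowest Bcl2 and Bcl2l11. Among all tested genes 21.7% were highest in FDM 3 and 19.7% in FDM 1. With ties left out, 14.2% were lowest in FDM 3 and 31.5% in FDM 1. Likeness of profiles was measured as the root mean square difference of log2 CPM over the 6 libraries after centring each gene on its own mean. The closest members were Bcl2l1 and Bad, at 0.34, followed by Bcl2l1 and Bax, at 0.35. Bbc3 and Bcl2l11, whose own spread was the widest, were the farthest apart, at 1.5, and this distance grows with the spread of the genes compared. The within-group SD was 0.43 to 1.33 on the log2 CPM scale and below the median of all tested genes, 0.95, for 8 of the 9 genes, the exception being Bcl2l11. These measures describe only 6 libraries, for which the same protocol is stated, and genes with few counts spread more than others.

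The nearest profile to each of the 9 genes was also sought among 13006 other named genes. With so many candidates and only 6 libraries, close profiles can arise without any link between genes, and no link was tested. The spread of the 9 genes themselves ran from 0.36 for Mcl1 to 1.09 for Bcl2l11 on the same scale. Nup214, a nuclear pore gene, was nearest to Bcl2l1 at 0.06, Mob3c to Bak1 at 0.07, and the proteasome subunit gene Psma2 to Bax at 0.08. Ascc1 was nearest to Bad and Gab1, an adaptor of growth factor receptors, to Mcl1, at 0.09 and 0.10. Pcgf5, a Polycomb subunit gene, was nearest to Bcl2 at 0.11 and Ppp6r2 to Bid at 0.13. The receptor tyrosine kinase gene Mst1r was nearest to Bbc3 at 0.16, and the messenger RNA decapping gene Dcp2 to Bcl2l11 at 0.27.

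Because the outcome of this pathway depends on the balance between members, ratios were formed within each library, where the scaling cancels out. They are ratios of CPM without a length correction and can be read only across libraries. Bax to Bcl2, often used as an index of apoptotic readiness, had ratios of 5.87, 2.29 and 1.11 in FDM 1, 2 and 3, against 2.99, 2.0 and 1.51 in NC 1, 2 and 3. The FDM libraries thus held both the highest and the lowest ratio. On the log2 scale FDM averaged 1.30 ± 1.21 and NC 1.06 ± 0.50 (SD, n = 3), a difference of 0.24 that was -0.38 without FDM 1, 0.82 without FDM 3, 0.50 without NC 1 and 0.01 without NC 3. Bax to Bcl2l1 had log2 ratios of -1.59, -1.10 and -1.56 in FDM 1, 2 and 3, against -2.24, -1.79 and -1.44 in NC 1, 2 and 3, with NC 3 above 2 of the FDM libraries. The difference of the means was 0.41, with SDs of 0.27 in FDM and 0.40 in NC, and it was 0.25 without FDM 2 and 0.20 without NC 1. The sum of the 3 anti-apoptotic genes over the sum of the 5 BH3-only genes had log2 ratios between 1.82 and 2.40 for FDM and between 1.98 and 2.56 for NC. Its difference of -0.09 was smaller than the SD of either group, 0.29 and 0.32, and it was 0.06 without FDM 2 and 0.10 without NC 3. In CPM the first sum was mostly Bcl2l1 and Mcl1 and the second mostly Bad and Bid, so the other members weigh less in this ratio.

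**Figure D3:**
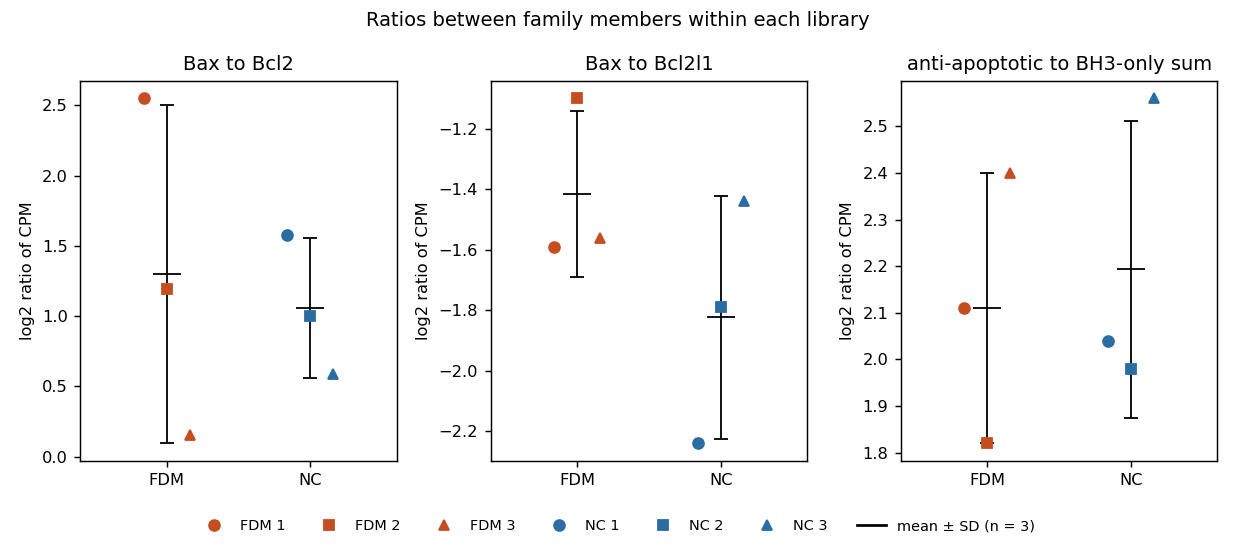
Log2 ratios of CPM within each FDM and NC library for Bax to Bcl2, Bax to Bcl2l1 and the summed anti-apoptotic to the summed BH3-only genes, with mean and SD of 3 libraries. The groups overlap in each panel, and Bax to Bcl2 spans 0.15 to 2.55 within FDM.

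Genes of the CHOP pathway and of the DNA damage response, which act on this family, were read beside it. Ddit3 itself stood at 70.7, 20.1 and 49.1 CPM in FDM 1, 2 and 3 and at 8.90, 17.1 and 16.7 CPM in NC 1, 2 and 3. All FDM libraries were above all NC libraries, as for 2.73% of all genes, though FDM 2 was close to NC 2. For Ddit3 the unadjusted p in edgeR's quasi-likelihood test was 0.0183, and it did not pass after adjustment. The log2 fold change of Ddit3 was 1.71 ± 0.60 (SE), and 0.95 without both libraries numbered 1. FDM 1, the library with the most Ddit3, had the least Bcl2 and the least Bcl2l11. NC 1, the library with the least Ddit3, had the next lowest Bcl2, at 15.3 CPM. In FDM 1 31.5% of all tested genes were lower than in every other library, and a link of Ddit3 to either gene was not tested. Atf4, the transcription factor gene upstream of CHOP, was at 820.8, 516.9 and 419.4 CPM in FDM 1, 2 and 3 and between 526.8 and 588.0 CPM in the NC libraries. Trib3, a CHOP target, had 0, 10.7 and 5.40 CPM in the FDM libraries and 0, 2.90 and 9.32 CPM in the NC libraries, in the order of their numbers. Of the 12 tested genes of this arm edgeR called 0, and gave 2 an unadjusted p below 0.05, Ddit3 and Atf3, both higher in FDM, against 0.661% of all genes in that direction. DESeq2 called Atf3 at an adjusted p of 0.0069 and no other gene of the arm, but gave no adjusted p for Trib3, Chac1 and Sesn2. The edgeR log2 fold change of Atf3 was 3.88 ± 0.96 (SE), and 2.53 without FDM 3. The median log2 fold change of the arm was 0.32, with 8 positive and 4 negative. It was 0.04 without NC 1 and -0.19 without FDM 3, where the median of all genes was -0.18. Mapk8, which encodes the stress kinase JNK1 and is named after its values were seen, was the gene of the arm whose FDM libraries all lay below NC, as did 2.81% of all genes, with a log2 fold change of -0.50 ± 0.41 (SE).

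In the DNA damage response, Cdkn1a, which encodes an inhibitor of cyclin-dependent kinases, had 242.2, 204.9 and 158.2 CPM in FDM 1, 2 and 3 and 71.9, 57.0 and 94.4 CPM in NC 1, 2 and 3. For Cdkn1a every FDM library was well above every NC library, an order held by 2.73% of all genes. Mdm2, a ubiquitin ligase gene of this response, had 0, 28.9 and 59.8 CPM in FDM 1, 2 and 3 and 5.38, 18.4 and 47.5 CPM in NC 1, 2 and 3. Of 19 tested genes of the DNA damage response and growth arrest outside the family, edgeR and DESeq2 called 0, and 12 were positive, with a median of 0.31 (0.15 without FDM 2, 0.19 without FDM 3, 0.09 without NC 1, 0.11 without NC 2 and 0.48 without NC 3). DESeq2 gave no adjusted p for Tp53inp1, Perp, Plk3 and Fas. In edgeR an unadjusted p below 0.05 was found for 3 of the 19, Cdkn1a, Gadd45b and Btg2, all with higher means in FDM, as had 0.661% of all genes. Gadd45b, a stress-induced gene, had log2 fold changes of 2.58 ± 0.75 (SE) and 1.73 without FDM 3, and Btg2, an antiproliferative gene, 2.33 ± 0.85 (SE) and 0.61 without FDM 3. Sesn1, a sestrin gene of the stress response named after its values were seen, lay lower in every FDM library than in any NC library, as did 2.81% of all genes, with a log2 fold change of -0.70 ± 0.47 (SE).

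**Figure D4:**
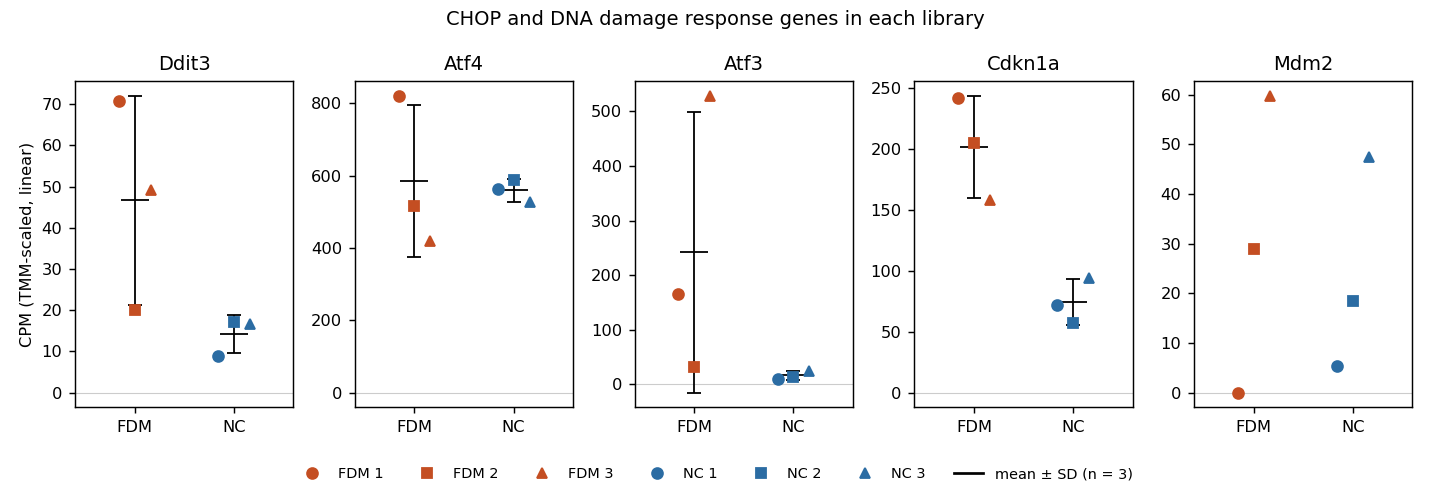
TMM-scaled CPM (linear axis) of Ddit3, Atf4, Atf3, Cdkn1a and Mdm2 in each FDM and NC library, with mean and SD of 3 libraries except for Mdm2, which was at 0 in FDM 1. The groups are apart for Ddit3, Atf3 and Cdkn1a and overlap for Atf4 and Mdm2.

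Other genes of the family were taken from a wider list. Of 15 listed, 11 were tested and 0 called, with 5 positive and 6 negative and a median log2 fold change of -0.13 (0.12 without FDM 1 and 0.03 without NC 3). Bok, a BAX-like effector gene controlled by protein turnover, had the smallest p, with 123.2, 39.1 and 13.2 CPM in FDM 1, 2 and 3 and 27.6, 11.7 and 20.5 CPM in NC 1, 2 and 3. FDM 1 was far above the rest and FDM 3 lay among the NC libraries. Bok had a log2 fold change of 1.55 ± 0.76 (SE), with an unadjusted p of 0.0715 in edgeR's quasi-likelihood test, and 0.39 without FDM 1. The mitophagy receptor gene Bnip3, a target of hypoxia-inducible factors, had -0.74 ± 0.52, with FDM between 39.9 and 69.9 CPM and NC between 35.5 and 121.4 CPM. Bcl2a1, an NF-kB target expressed in blood cells, was at 0, 7.72 and 0.251 CPM in FDM 1, 2 and 3 and between 2.48 and 8.12 CPM in the NC libraries.

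Downstream of the pore, 11 genes of the apoptosome, caspases and released mitochondrial factors were tested, with 0 called, 6 positive and a median of 0.20 (-0.04 without FDM 3, 0.09 without FDM 1 and 0.08 without NC 2). Without FDM 3 the median of all genes was -0.18. Aifm1, which encodes the flavoprotein AIF, an oxidoreductase that can be released in cell death, was the one gene of the 11 without overlap, against 5.55% of all genes. It stood at 22.8, 35.8 and 19.3 CPM in FDM 1, 2 and 3 and at 40.4, 58.9 and 52.6 CPM in NC 1, 2 and 3, lower in FDM. Its log2 fold change of -0.96 ± 0.45 (SE) had an unadjusted p of 0.061 in edgeR's quasi-likelihood test. The nuclease gene Endog had 1.26 ± 0.85 and Dffa, the inhibitor of the caspase-activated nuclease, 0.68 ± 0.49 (0.33 without FDM 3). The initiator caspase gene Casp9 had 0.20 ± 0.47 and the apoptosome scaffold gene Apaf1 -0.04 ± 0.74 (-0.76 without FDM 3 and 0.21 without FDM 2), with overlap of the groups in each.

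The inhibitor of apoptosis genes had a median log2 fold change of 0.02 over 6 tested genes, 0 of them called, and -0.26 without FDM 3, -0.18 without NC 2 and -0.04 without NC 3. Over all genes the median without FDM 3 was -0.18. Xiap, the direct caspase inhibitor, ranged from 3.06 to 37.1 CPM among FDM libraries and from 4.99 to 31.1 CPM among NC libraries. Its log2 fold change was 0.09 ± 0.96 (SE), and -1.01 without FDM 3, -0.35 without NC 1 and -0.09 without NC 3. Birc2 had -0.40 ± 0.77 (0.02 without FDM 1) and Birc3 0.06 ± 0.53 (-0.35 without FDM 1 and -0.28 without NC 2). In the death receptor pathway 10 of 13 tested genes were positive and 0 called, with a median of 0.31 (-0.03 without FDM 2). The adaptor gene Fadd had 82.4, 32.6 and 15.2 CPM in FDM 1, 2 and 3 and 8.51, 19.7 and 19.4 CPM in NC 1, 2 and 3. FDM 1 and FDM 2 were above NC and FDM 3 was within it, and the log2 fold change was 1.45 ± 0.69 (SE), 0.58 without FDM 1 and 0.19 without both libraries numbered 1. Casp10 had 0.78 ± 0.62 (0.34 without FDM 1 and -0.02 without both libraries numbered 1) and Tnfrsf1a, a receptor of tumour necrosis factor, 0.49 ± 0.49.

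Partners of the family in the mitochondrial and ER membranes had a median of 0.04 over 10 tested genes, 5 positive and 0 called, which was -0.23 without NC 1 and 0.28 without NC 3. They had log2 fold changes of 0.85 ± 0.60 for the ER calcium channel gene Itpr2, 0.49 ± 0.54 for Itpr3 (0.07 without NC 2 and 1.02 without NC 3) and -0.47 ± 0.46 for the channel gene Vdac1. Regulators of the proteins of the family, such as the 14-3-3 genes that retain BAD and the ubiquitin ligases of MCL1, had a median of 0.17 over 21 tested genes, 16 of them positive and 0 called, and 0.02 without both libraries numbered 1. Huwe1, an MCL1 ligase gene named after its values were seen, lay between 163.3 and 184.2 CPM for FDM and between 64.4 and 158.5 CPM for NC. It was the one gene of the 21 without overlap, with a narrow gap, against 5.55% of all genes in either direction. Usp9x, which removes ubiquitin from MCL1, had 0.58 ± 0.43, the kinase gene Pim1 0.80 ± 0.52 and Dynll1, a dynein light chain gene, 1.21 ± 0.57, which was 0.35 without FDM 3.

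**Figure D5:**
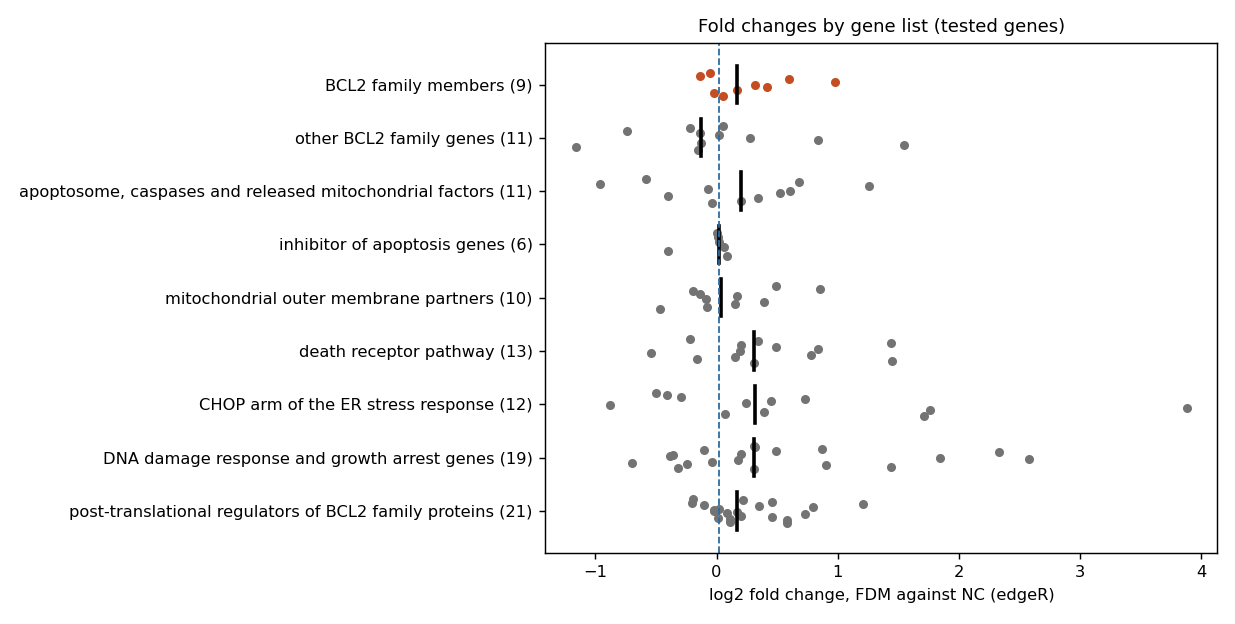
Log2 fold changes of FDM against NC from edgeR for the tested genes of the 9 BCL2 family members (red) and of 8 related gene lists (grey, numbers of tested genes in parentheses), with black bars at the medians and a dashed line at the median of all tested genes, 0.02. The list medians lie between -0.13 and 0.32, and the BCL2 family members span -0.14 to 0.98.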

How the data were processed

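The authors deposited raw read counts per gene for 6 libraries of guinea pig posterior sclera in a single table. Per the submitters' processing notes, Trimmomatic, STAR and HTSeq were used; the sources used here give no versions, genome build, annotation or strand setting, so reads of overlapping genes cannot be told apart and no coordinates are printed. Extraction was by Trizol and library preparation by a NEBNext Ultra kit, per the labels' protocols. Groups and numbers come from the sample titles.

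The groups were compared with edgeR 4.0.16 under R 4.3.3 (filterByExpr, TMM, robust quasi-likelihood test, group as the only term, Benjamini-Hochberg over 16348 genes of 32193, called at an adjusted p below 0.05). The code was run beforehand on simulated data. Recovery of the planted changes was required there only at a spread between libraries far below that of these data. The SE is the absolute log2 fold change over the square root of F, and 95% intervals use its degrees of freedom. Log2 CPM uses a prior count of 2. The biological coefficient of variation common to all genes was 0.933. Tested members had 15 to 3612 counts per library. With 3 against 3 libraries an exact two-sided permutation p cannot be below 0.1, so none is given. DESeq2 1.42.0, limma-voom (limma 3.58.1), other scalings and filters, a replicate block and left-out libraries were alternatives. DESeq2 gave no adjusted p for Bbc3 and Bcl2l11. Figures used matplotlib 3.10.9.

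Members, lists and alternatives were chosen with earlier results of these data known. Named are all 10 members, the nearest of the 3 most similar profiles of each, the 3 genes of smallest p in each of 8 related lists and 8 fixed regulators; Mapk8, Sesn1 and Huwe1 were named after their values were seen. Symbols were matched without regard to case in the lists, exactly for the members. Some items were taken out of the lists and are not reported here.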

Additional observations from a re-analysis of the deposited data

How the results depend on the processing

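The count of 0 family members called held in edgeR under every scaling and filter tried, in limma-voom, in DESeq2 and whichever library was left out, and so did the count of 0 at an unadjusted p below 0.05. For Bbc3 and Bcl2l11 DESeq2 gave only the unadjusted p. Over all genes DESeq2 called 9 at an adjusted p below 0.05 where the other settings called 0. At an unadjusted p below 0.05 the 156 genes became 281 in DESeq2, 367 without a filter and 335 in edgeR's newer form, which was added after seeing the data, and 84 to 536 with a single library left out. Total-count scaling put the all-gene median at -0.23 instead of 0.02. Under it Bcl2 had -0.19 and Mcl1 -0.04, which relative to that median are 0.04 and 0.19, and without a filter Bcl2 had -0.02. Bad turned to 0.08 in limma-voom, 0.03 with the replicate block and 0.29 without both libraries numbered 1. With a single library left out Bcl2 ranged from -0.23 to 0.39, Bcl2l1 from -0.41 to 0.23, Mcl1 from -0.18 to 0.38, Bak1 from -0.01 to 0.65, Bid from -0.48 to 0.06 and Bad from -0.36 to 0.63. The causes were not tested. Bax, Bbc3 and Bcl2l11 were positive in all 17 alternatives, though Bax was at 0.07 without both libraries numbered 1 and 0.14 with total-count scaling. These genes had the largest log2 fold changes of the tested members, and the alternatives reuse the same libraries. How many of all genes kept their sign was not counted. Deviations from the group means had correlations of 0.095, 0.034 and -0.152 between same-numbered libraries and of -0.222 to 0.261 between differently numbered ones. Deviations from a mean of 3 libraries constrain each other, so these values cannot decide whether the numbers pair the libraries. The replicate block in edgeR gave 0 genes called and 120 at an unadjusted p below 0.05.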
